A study of Drosophila melanogaster with 8 samples.

Results

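A set of 251 regions on the autosomal arms 2L, 3L and 3R of Drosophila melanogaster yielded a peak of N6-methyladenine (6mA) enrichment in each of 4 ovarian libraries. The regions were built by merging peaks that shared at least 1 bp across the 4 peak lists, which gave 7001 regions in the whole series and 3475 on these 3 arms. The 251 are those with a peak from every library. Other autosomal arms were outside this choice. The regions were thus chosen by peak presence, and with it by the enrichment over input, in all 4 libraries, and the values of enrichment are given as a description with no test. Each library is represented by the highest fold enrichment of its peaks in the region. This is the ratio of antibody-recovered DNA to the background that the authors' peak caller computed, from local input or genome-wide.

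The libraries came from ovaries of flies in which the transgene UASp-Sam-S was driven in the germline by nanos-gal4 (Sam-S 1 and Sam-S 2) and from ovaries labelled as control (control 1 and control 2). Replicates 1 of both genotypes are called batch 1 here and replicates 2 batch 2, by the replicate numbers of the sample titles. The labels name no strain, age or driver for the control, and the ovary is given whole, so DNA of the somatic follicle cells is included beside that of the germline in which nanos-gal4 acts. A difference in the proportion of germline nuclei and a difference in the mark per nucleus cannot be told apart in such samples. The design asks whether raising Sam-S in the germline changes the 6mA profile of ovarian DNA.

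N6-methyladenine is adenine carrying a methyl group on its amino group, a base long known from bacterial DNA and described at low abundance in animals. Methyltransferases take that group from S-adenosylmethionine, which the enzyme encoded by Sam-S makes from methionine and ATP. In flies, the product of Tet has been described as removing the mark from DNA. Antibody recovery followed by sequencing gives the neighbourhood of the mark and not the modified base, so a peak is a stretch of DNA recovered above input.

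The immunoprecipitated libraries held 45068709 tags for Sam-S 1, 39591292 for Sam-S 2, 47403833 for control 1 and 49800736 for control 2. Control 2 stood apart. Its list had 279 peaks on 2L, 3L and 3R, against 2205 for Sam-S 1, 2680 for Sam-S 2 and 1635 for control 1. Of those 279 control 2 peaks, 264 (94.6%) lay in the 251 regions, whereas the regions took up 11.5% of the Sam-S 1 peaks, 9.63% of the Sam-S 2 peaks and 15.8% of the control 1 peaks on these arms. The set is thus nearly the control 2 list itself. Counts of regions with the genotypes apart are given with and without it, and the fold of each library is printed for single regions.

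On the 3 arms 889 further regions lacked a control 2 peak and held one of every other library. Their median folds were 2.04 for Sam-S 1, 2.14 for Sam-S 2 and 1.91 for control 1, below those of the 251 in the same libraries. At the edge of the set, the region 3R:622739-623225 in Myo81F passed with a q-value of 0.0495 in control 2, where the caller's cutoff was 0.05. Its folds were 1.79 for Sam-S 1, 1.78 for Sam-S 2, 1.74 for control 1 and 1.30 for control 2. The strongest region just outside the set, 3R:27725680-27725963, had folds of 2.77 for Sam-S 1, 3.19 for Sam-S 2 and 2.77 for control 1 with no control 2 peak. The next was 3R:22007325-22007724 in the ecdysone-induced gene Eip93F, with 2.64 for Sam-S 1, 3.33 for Sam-S 2 and 2.74 for control 1. In those 3 libraries these regions were above the medians given below for the 251.

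The arms held 55 regions on 2L, 84 on 3L and 112 on 3R, or 2.34, 2.99 and 3.49 regions per Mb. They made up 6.94% of the merged regions on 2L, 6.94% on 3L and 7.61% on 3R, so the higher density on 3R went with a higher density of all peaks there. The longest stretch between neighbours was 2.02 Mb on 2L, 1.41 Mb on 3L and 1.98 Mb on 3R. Against this spacing, 56 of the 251 lay within 10 kb of another. The regions had a median length of 442 bp, with a range of 255 to 4828 bp, and together spanned 144 kb. Regions of the same arms with peaks in 3 libraries had a median length of 311 bp, those in 2 libraries 265 bp and those in 1 library 226 bp. A merged region cannot be shorter than its longest peak, so its length grows with the number of lists that touch it.

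A single peak per library formed 234 of the regions, and 17 held more. The longest, 2L:9898060-9902887, lay on Muc30E, a mucin gene, and had folds of 2.37 for Sam-S 1, 2.84 for Sam-S 2, 2.27 for control 1 and 2.05 for control 2. On 3L a pair of adjoining regions between CG32440 and rgn, 3L:21366789-21368507 and 3L:21368591-21371264, held 6 and 9 peaks. Their folds were 2.42 and 3.03 for Sam-S 1, 2.96 and 3.06 for Sam-S 2, 2.61 and 2.36 for control 1 and 1.93 and 2.24 for control 2. On 3R the regions 3R:27726060-27728754 and 3R:27729633-27730859 lay next to each other between CG12877 and Ets98B, also with 6 peaks each. The strongest region outside the set ended just short of this pair. In all, 23 regions exceeded 1 kb.

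The libraries placed the regions at nearly the same positions. The summits of the highest peaks were not used to choose the regions. The peaks around them had to overlap, however, which by itself limits how far apart the summits can lie. The distance between the outermost of the 4 summits had a median of 40 bp, beside tags extended to 200 bp. It was at most 50 bp in 153 regions and at most 100 bp in 205 (81.7%). It exceeded 300 bp in 16 regions. The largest distance, 1776 bp, was in 3R:28070668-28073551 within trv, and the second, 1596 bp, in 3R:25398296-25400244 on Fur1 and the mucin gene Muc96D. At those places the libraries had their highest fold at different points of one long region.

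**Figure D1:**
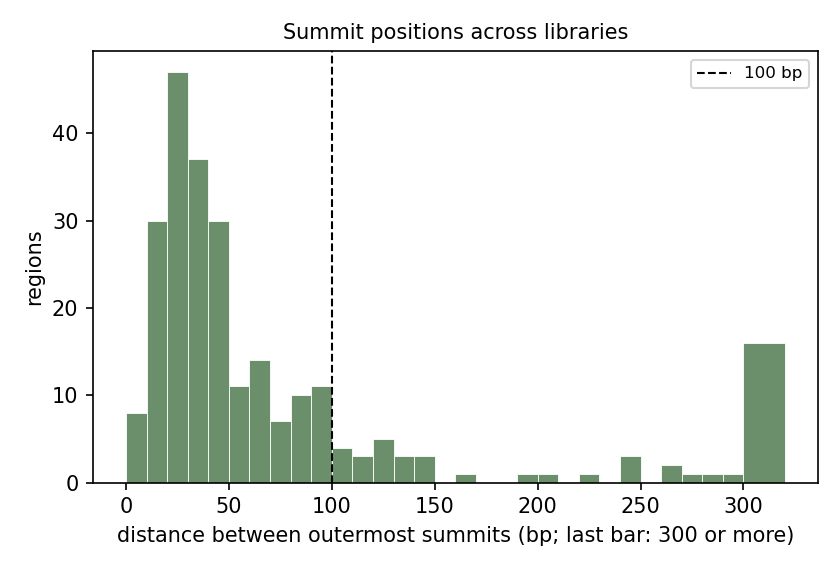
Histogram of the distance in bp between the outermost of the 4 library summits in each of the 251 regions, in bins of 10 bp with the last bar holding 300 or more. Most regions lie left of the dashed line at 100 bp, and 16 exceed 300 bp.

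Each library's highest peak had its summit close to the region's median summit, with median offsets of 8.5 bp for Sam-S 1, 8.5 bp for Sam-S 2, 7.5 bp for control 1 and 14 bp for control 2. The genotype means were 8.5 ± 0 bp for Sam-S and 10.8 ± 4.60 bp for control (SD, n = 2 each). No test is given, since summits lie within peaks whose bounds entered the choice of regions. The highest peaks had median lengths of 386 bp for Sam-S 1, 397 bp for Sam-S 2, 365 bp for control 1 and 249 bp for control 2. Their means were 392 ± 7.78 bp for Sam-S and 307 ± 82.0 bp for control (SD, n = 2 each), with no test, since peak bounds entered the choice of regions. The difference was 21 bp within batch 1 and 148 bp within batch 2. Control 2 had the shortest of the 4, and the other 3 medians lay within 365 to 397 bp.

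At the 251 regions the median fold was 2.40 for Sam-S 1 and 2.49 for Sam-S 2, against 2.22 for control 1 and 1.79 for control 2. The interquartile range was 2.19 to 2.65 for Sam-S 1, 2.21 to 2.80 for Sam-S 2, 1.95 to 2.47 for control 1 and 1.67 to 1.94 for control 2. The whole range over regions and libraries was 1.30 to 5.06. A fold of at least 2 was reached by 218 regions for Sam-S 1, 223 for Sam-S 2, 180 for control 1 and 43 for control 2, and by 42 regions in every library. Control 2 had the lowest fold of the 4 at 233 of the 251 regions. Sam-S 2 had the highest at 154, Sam-S 1 at 79 and control 1 at 17. For the counts in this paragraph no share over all 565 regions of the series with a peak in every library was computed. The median folds over those 565 were the same for Sam-S 1, control 1 and control 2, and 2.497 for Sam-S 2. The order of the libraries is thus not shown to be particular to the autosomal regions.

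**Figure D2:**
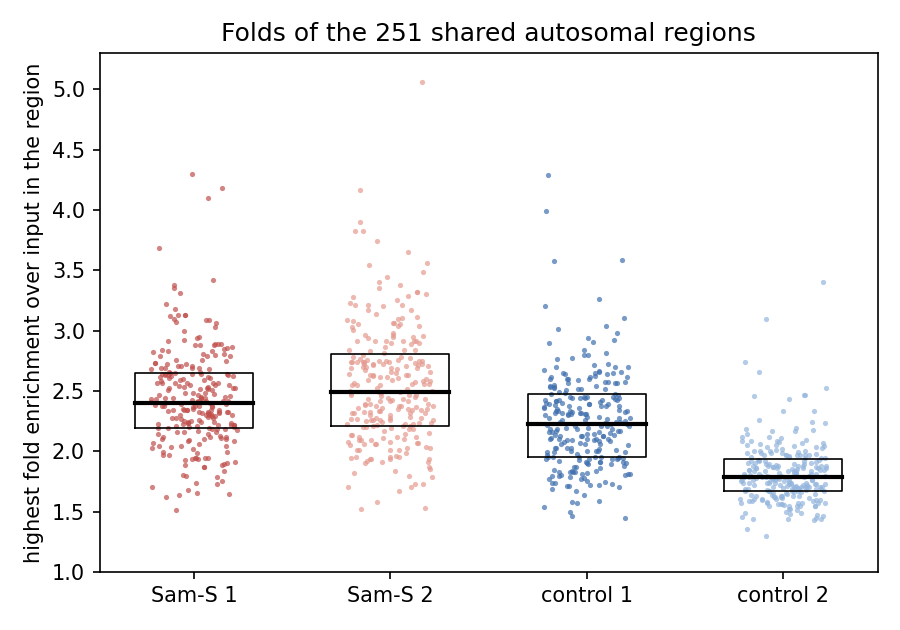
Highest fold enrichment over input of the 251 regions, one point per region, in each library. Boxes span the interquartile range and thick lines mark the medians, 2.40 for Sam-S 1, 2.49 for Sam-S 2, 2.22 for control 1 and 1.79 for control 2.

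On the log2 scale the library medians averaged 1.29 ± 0.0357 in Sam-S and 0.995 ± 0.224 in control (SD, n = 2 each), a difference of 0.29. It was 0.11 within batch 1 and 0.48 within batch 2. Without control 2, over the same 251 regions, the difference was 0.14. The controls were 0.31 apart, with control 2 above control 1 at 16 regions, and the Sam-S libraries 0.06 apart, as medians of the log2 ratio. The spread between the controls was therefore as large as the difference between the genotypes.

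The heights behind the folds gave the same order of libraries. The median pileup at the summits, the number of stacked tags, was 2.66 times the genome-wide background for Sam-S 1, 2.83 times for Sam-S 2, 2.48 times for control 1 and 1.92 times for control 2. The background that divides it, from local input or genome-wide, had medians of 1.05, 1.09, 1.06 and 1.02 times the genome-wide one in the same order of libraries. It lay at the genome-wide value, its lowest, at 101, 65, 104 and 110 of the 251 regions. Local input may be lower there than this background shows. Input at a raised level, at least 1.5 times the genome-wide background in every library, was found at 4 regions, in spen, Muc30E, Noc1 and CG12877. At 40 regions the local background did not rise above the genome-wide one in any library. There the median log2 ratio of Sam-S to control was 0.08 in batch 1 and 0.63 in batch 2, and at the other 211 regions 0.11 and 0.46. Over all 251 regions the ratio of heights, which does not use the local input, had a median log2 of 0.10 in batch 1 and 0.54 in batch 2. By height Sam-S was higher at 205 and 251 regions. For these counts no share over all 565 regions called in every library was computed. At single regions the input could enter more, as in tara and Pzl, described further on.

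Across the 251 regions the folds ranked alike between libraries, with Spearman coefficients of 0.718 between the Sam-S libraries, 0.668 between the controls, 0.748 between Sam-S 1 and control 1 and 0.582 between Sam-S 2 and control 2. These coefficients describe regions chosen to be enriched in each library, and the libraries share the sites themselves. The rank order between genotypes was as close within batch 1 as that between replicates.

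Sam-S exceeded control at 193 of the 251 regions (76.9%) in batch 1 and at 248 (98.8%) in batch 2. For these single-batch counts no share over all 565 regions with a peak in every library was computed. They are thus not shown to be particular to the autosomal regions, and control 2 had the lowest fold at 233 of the 251. Both Sam-S folds exceeded both control folds at 168 regions (66.9%), where 65.3% of all 565 regions with a peak in every library did so, and the opposite was found at 0 regions, against 0.708% of the 565. Sam-S was the higher in both batches at 190 regions, or 75.7% beside 74.3% of the 565. It was the lower in both batches at 0 regions, beside 1.77%. The batches differed in direction at 61, a count without a computed share of the 565. Where both were computed, the shares among these autosomal regions thus lay near those of all regions called in every library, which include the 251. Without control 2 both Sam-S folds exceeded the control 1 fold at 169 of the same regions, beside 65.7% of the 565.

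The within-batch ratios differed in size between the batches and did not rank alike. The median log2 ratio was 0.11 in batch 1, with a range of -0.31 to 0.64, and 0.48 in batch 2, with a range of -0.23 to 0.98. Across the 251 regions the ratios of the batches, which share no library, had a Spearman coefficient of 0.00215 and a Pearson coefficient of -0.0145. When regions were divided into 3 classes of 83 or 84 by their batch 1 folds, the median batch 2 ratio was 0.36 in the weakest class, 0.48 in the middle and 0.56 in the strongest. Divided by their batch 2 folds, the median batch 1 ratios were 0.12, 0.13 and 0.08. The gap between Sam-S 2 and control 2 was widest at the strongest regions, and no such order was seen in batch 1. With 1 tag per position the pileup could not exceed 400 for Sam-S 1, 479 for Sam-S 2, 400 for control 1 and 420 for control 2. The highest pileups reached 89.5, 88.3, 88.0 and 71.3% of these limits in the same order. The part of this limit in the ratios was not tested.

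**Figure D3:**
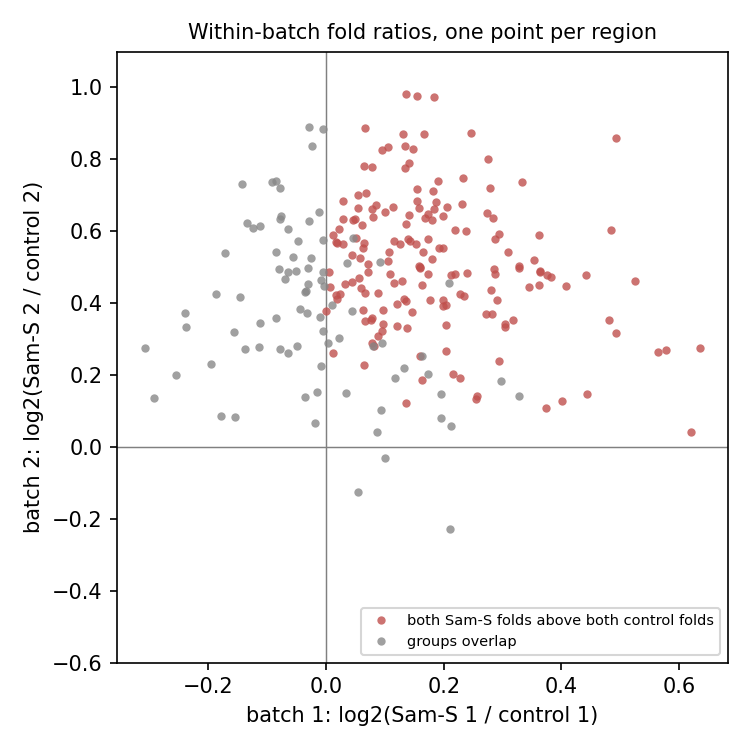
Log2 ratio of the Sam-S to the control fold in batch 1 (horizontal axis) and batch 2 (vertical axis), one point per region. The 168 red points are regions where both Sam-S folds exceeded both control folds; nearly all points lie above 0 on the vertical axis and no point lies below 0 on both axes.

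The values were close on the 3 arms. Median folds for Sam-S 1, Sam-S 2, control 1 and control 2 were 2.43, 2.52, 2.21 and 1.79 on 2L. They were 2.43, 2.59, 2.34 and 1.80 on 3L, and 2.38, 2.46, 2.17 and 1.78 on 3R. Both Sam-S folds exceeded both control folds at 37 of 55 regions on 2L, 53 of 84 on 3L and 78 of 112 on 3R. Without control 2 both Sam-S folds exceeded the control 1 fold at 37, 53 and 79 regions of these arms. The 190 regions of the X chromosome called in all libraries had medians of 2.48, 2.53, 2.28 and 1.79 in the same order, and 126 of them (66.3%) had the genotypes apart with Sam-S above, with the same number without control 2. The shared autosomal and X regions thus had like folds in each library, with no test made between them.

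The strongest region by its mean over the libraries was 2L:19260138-19261140 in CG31797, for which no role is given here. Its fold was 4.18 for Sam-S 1 and 5.06 for Sam-S 2, against 3.99 for control 1 and 3.10 for control 2. The second, 2L:626379-628068 in CG2839, had 4.30 for Sam-S 1 and 4.16 for Sam-S 2, against 4.29 for control 1 and 3.41 for control 2. In CG2839 the groups overlapped, since control 1 was above Sam-S 2, and in CG31797 they did not. The third, 3R:4541948-4542591, covered Mur82C, a gene named for its mucin-like product, inside the longer CG34357. It had 4.10 for Sam-S 1 and 3.90 for Sam-S 2, against 3.59 for control 1 and 2.66 for control 2. The fourth, 2L:330611-331120, lay on Plc21C, which encodes a phospholipase C of G protein signalling, and on CG31921. It had 3.69 for Sam-S 1 and 3.56 for Sam-S 2, against 3.58 for control 1 and 2.74 for control 2, so its groups overlapped. Plc21C held another of the 251 regions as well.

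The other 6 of the 10 strongest all had both Sam-S folds above both control folds. The region 3L:22832690-22833499 in jim, a zinc finger gene, had 3.31 for Sam-S 1 and 3.83 for Sam-S 2, against 3.20 for control 1 and 2.47 for control 2. In Delta, which encodes a ligand of Notch and acts between germline and follicle cells in the ovary, 3R:19322284-19322723 had 3.42 and 3.83 for Sam-S 1 and 2, against 3.26 and 2.07 for control 1 and 2. Its log2 ratio was 0.07 in batch 1 and 0.89 in batch 2, the widest split between batches among the 10. The region in SKIP, 3R:22139979-22140420, had 3.35 and 3.65 for Sam-S 1 and 2, against 3.04 and 2.33 for control 1 and 2. Between the genes lncRNA:CR42719 and lncRNA:CR43337, 3L:618894-619226 had 3.38 and 3.49 for Sam-S 1 and 2, against 2.98 and 2.43 for control 1 and 2, and its 4 summits lay within 7 bp. In Hrb27C, whose RNA-binding product takes part in placing mRNAs in the oocyte, 2L:6926892-6927347 had 3.07 and 3.32 for Sam-S 1 and 2, against 2.94 and 2.47 for control 1 and 2. In lncRNA:CR45737, 3L:3394087-3394617 had 3.22 and 3.45 for Sam-S 1 and 2, against 2.66 and 2.20 for control 1 and 2. Over the 10 strongest, the groups were apart at 8, beside 66.9% of the 251 regions.

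**Figure D4:**
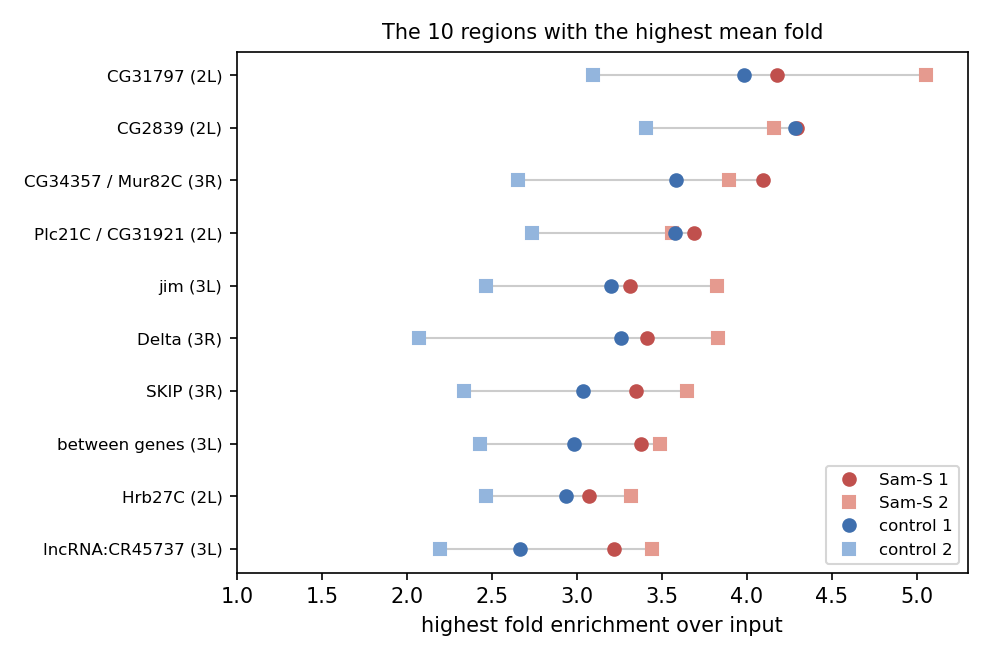
Highest fold enrichment over input of the 10 regions with the highest mean over the libraries. Regions are named by the gene they overlap or, where there is none, as between genes. Sam-S is in red and control in blue, with circles for batch 1 and squares for batch 2. Control 2 has the lowest fold in all 10, and at CG2839 the Sam-S 1 and control 1 points coincide at 4.30 and 4.29.

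The widest ratios with one direction in both batches were found at regions of moderate fold. In tara, a gene that takes part in cell cycle control, 3R:16228948-16229557 had 2.42 for Sam-S 1 and 2.71 for Sam-S 2, against 1.72 for control 1 and 1.49 for control 2, or log2 ratios of 0.49 and 0.86 in batches 1 and 2. The background that divides the pileup at tara was 1.09 and 1.00 times the genome-wide one for Sam-S 1 and 2. It was 1.33 and 1.13 times for control 1 and 2. Its heights over the genome-wide background were 2.66 and 2.73 for Sam-S 1 and 2, against 2.29 and 1.70 for control 1 and 2, so the groups stayed apart on that scale. In Bsg, which encodes basigin, a membrane protein of the immunoglobulin family, 2L:8089135-8089741 had 3.13 for Sam-S 1 and 3.38 for Sam-S 2, against 2.64 for control 1 and 1.85 for control 2. The ratios were 0.25 and 0.87, and the local input there did not rise above the genome-wide background in any library. These were the 2 of the 5 widest in which batch 1 gave more than 0.20. In lncRNA:CR46451, Atx2 and Osi10b the batch 1 ratios were 0.18, 0.15 and 0.14, beside 0.97, 0.98 and 0.98 in batch 2. Atx2 encodes a regulator of translation, and Osi10b belongs to the Osiris gene family.

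At the other end, the smallest mean ratios among regions with one direction in both batches were close to 0. In CG42238, 2L:21050958-21051304 had 1.90 for Sam-S 1 and 1.70 for Sam-S 2, against 1.79 for control 1 and 1.66 for control 2. In Noc1, a gene of ribosome assembly, 3L:11077726-11078246 had 1.95 for Sam-S 1 and 1.96 for Sam-S 2, against 1.77 for control 1 and 1.80 for control 2. Noc1 is among the 4 regions with raised input. The remaining 3 lay in CG42674, between for and Drgx, and between lncRNA:CR45669 and wat, with ratios of 0.03 to 0.21 in either batch. At 3 regions, chosen after their values were seen, the Sam-S 2 fold was below the control 2 fold. They lay in Pzl, a gene of the Piezo channel family, with 2.32 for Sam-S 2 and 2.53 for control 2, in sqd with 2.12 for Sam-S 2 and 2.17 for control 2, and in Afti with 1.53 for Sam-S 2 and 1.79 for control 2. At the Pzl region control 2 had the highest fold of all 4 libraries, the only such case in the 251. The local input at this place was 1.70 and 1.94 times the genome-wide background for Sam-S 1 and 2, against 1.76 and 1.30 times for control 1 and 2. The heights were 3.89 and 4.50 for Sam-S 1 and 2, against 3.87 and 3.29 for control 1 and 2, so by height control 2 was the lowest.

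The smallest folds of the set all came from control 2. The region in Myo81F at its edge was followed by 2L:2745831-2746380 in Cwc25, a splicing factor gene, with 1.94 for Sam-S 1 and 2.33 for Sam-S 2, against 1.77 for control 1 and 1.36 for control 2. In mtd, 3R:5336067-5336557 had 1.98 for Sam-S 1 and 1.58 for Sam-S 2, against 1.58 for control 1 and 1.43 for control 2.

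The midpoint of 204 of the 251 regions (81.3%, 95% Wilson interval 76.0 to 85.6%) lay in a gene of the RefSeq Release 6 table. Genes cover 68.6% of the bases of these arms. Points 5 kb below and above the midpoints lay in a gene in 76.5% and 73.7%. Regions of the same arms with peaks in 3, 2 or 1 libraries lay in a gene in 76.4% (73.5 to 79.1%), 78.1% (74.9 to 81.0%) and 73.6% (71.4 to 75.7%). By arm the share was 85.5% on 2L (73.8 to 92.4%), 73.8% on 3L (63.5 to 82.0%) and 84.8% on 3R (77.0 to 90.3%), and 86.3% for the 190 X regions (80.7 to 90.5%). The interval of the 251 overlapped those of the regions in 3 and 2 libraries and lay above that of the regions in 1 library. The intervals cover counting error only.

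In all, 191 genes overlapped a region, 1.7% of the 11216 genes of the table on the 3 arms. Of these 185 were protein-coding, 5 were lncRNA genes and 1 an antisense RNA gene. The protein-coding genes with a region had a median length of 24.2 kb, and those without one 2.03 kb. Protein-coding genes were divided into 4 classes of equal size by length. In the longest class 149 of 2199 (6.78%, interval 5.80 to 7.90%) held a region, in the next 29 of 2198 (1.32%), in the following one 7 of 2198 (0.318%) and in the shortest 0 of 2199, for which the interval reached 0.174%. Per Mb of gene the numbers were 3.78, 4.58 and 2.01 for the classes from the longest down, and 0 for the shortest. Per unit of sequence the longest genes thus did not hold more regions than the next class.

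**Figure D5:**
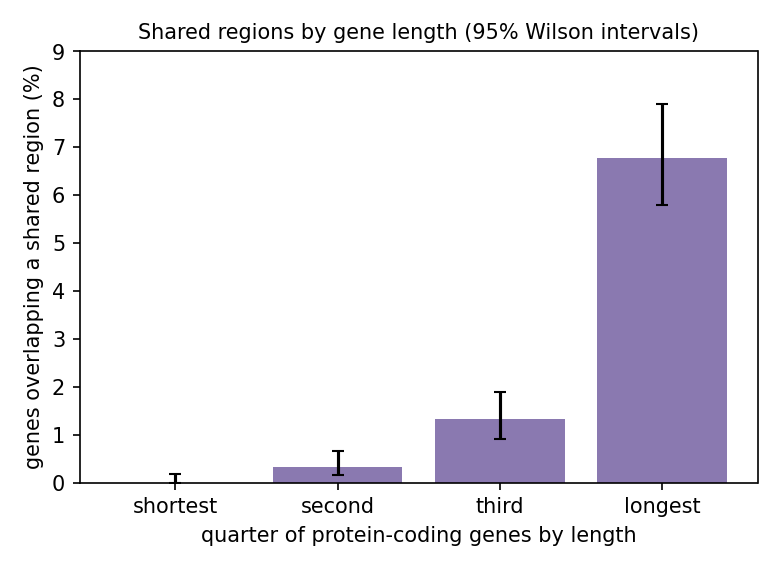
Percentage of protein-coding genes of 2L, 3L and 3R that overlap one of the 251 regions, in 4 equal classes of gene length, with 95% Wilson intervals. The share is 6.78% in the longest class and 0 of 2199 genes in the shortest.

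Of the 191 genes, 169 held 1 region, 14 held 2 and 8 held 3 or more. The most were 4, in shep and Myo81F. The RNA-binding protein gene shep, which spans 122 kb, had regions at 3L:5155894-5156329, 3L:5163945-5164484, 3L:5202660-5202976 and 3L:5277141-5277511. In that order their folds were 1.84, 2.64, 2.22 and 1.94 for Sam-S 1 and 2.71, 3.14, 2.28 and 2.23 for Sam-S 2. The control folds were 1.95, 2.65, 2.27 and 2.01 for control 1 and 1.62, 1.70, 1.69 and 1.83 for control 2. Sam-S was below control at all 4 in batch 1 and above it at all 4 in batch 2, so the groups overlapped throughout the gene. These regions share a locus and are not independent of each other.

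Rim, a gene of the presynaptic active zone, had Sam-S above control in both batches. Its regions 3R:17879620-17879952, 3R:17882161-17882847 and 3R:17909079-17909492 had 2.94, 2.45 and 3.09 for Sam-S 1 and 3.21, 3.11 and 3.05 for Sam-S 2. The control folds were 2.43, 2.08 and 2.54 for control 1 and 1.95, 1.85 and 1.96 for control 2. Both Sam-S libraries stood above both controls at all 3, with log2 ratios of 0.23 to 0.28 in batch 1 and 0.64 to 0.75 in batch 2. In Fhos, a formin gene of actin assembly, 3 neighbouring regions within 3L:8791763-8796544 also had both Sam-S folds above both control folds, with batch 1 ratios of 0.05 to 0.12. With groups that do not overlap at 66.9% of all regions, such runs within 1 gene were not tested.

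Sirt6, which encodes a deacylase of the sirtuin family, held 3 regions in its 6.50 kb, the densest of these genes. Their folds were 2.39, 2.88 and 2.08 for Sam-S 1 and 2.06, 2.72 and 2.30 for Sam-S 2, against 2.70, 2.33 and 2.00 for control 1 and 1.94, 2.15 and 1.69 for control 2. The groups overlapped at the first and were apart at the other two. Myo81F, a myosin gene spanning 1966 kb, held 3 regions within 3R:621664-625802 and the fourth at 3R:1989491-1990170. At the fourth the folds were 1.63 for Sam-S 1 and 1.82 for Sam-S 2, against 1.87 for control 1 and 1.55 for control 2. CG42238, Pzl and trv held 3 regions each, with the genotypes apart at 2, 1 and 2 of them.

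Among the gene lists, that of the piRNA pathway, which silences transposons in the germline, had 17 genes on the 3 arms. Of them 1 held a region, or 5.88% beside 1.7% of all genes. It was AGO3, an Argonaute protein of the amplification cycle. The region 3L:23663977-23664737 had 2.71 for Sam-S 1 and 3.03 for Sam-S 2, against 2.63 for control 1 and 2.10 for control 2. Of 16 genes of germline and oocyte development, among them nanos, bam, osk, bru1, orb and grk, 0 held a region. The same held for the 4 chorion genes Cp15, Cp16, Cp18 and Cp19 of the cluster that follicle cells amplify. It held for 111 histone genes and 109 chemoreceptor genes as well. The histone genes are near-identical tandem copies, among which reads cannot be placed with certainty. At a share of 1.7% less than 1 gene is counted in a list of 17 or fewer, so the short lists could not show a depletion. The histone and chemoreceptor genes had median lengths of 0.529 and 1.64 kb, in the range of the shorter length classes, in which 0 to 0.318% of genes held a region.

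Of 6 genes on these arms listed for the metabolism of the methyl donor or for 6mA, Tet held a region and Sam-S, Mettl4, Gnmt, AhcyL1 and AhcyL2 held none. This share, 16.7% beside 1.7% of all genes, rests on 1 gene. The Tet region, 3L:2828871-2829227, had folds of 2.34 for Sam-S 1 and 2.27 for Sam-S 2, against 2.12 for control 1 and 1.81 for control 2. Both Sam-S values were above both controls, with log2 ratios of 0.14 in batch 1 and 0.33 in batch 2. The lists give DNA recovery and no expression, so they do not check the level of Sam-S.

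The 8 Hox genes had a median length of 30.6 kb, and 1 of them held a region, or 12.5% beside 1.7% of all genes. The part of gene length in that share was not tested. The gene with the region was Dfd, which specifies head segments. Its region 3R:6801638-6801968 had 2.34 for Sam-S 1 and 2.71 for Sam-S 2, against 2.13 for control 1 and 1.82 for control 2. Of 36 genes of the dpr, DIP, beat and side families of neuronal surface proteins, 4 did, or 11.1% beside 1.7% of all genes. Their median length was 32.5 kb, among the long genes, and the part of gene length in this share was not tested. The 4 were dpr6 with 2.60 and 2.62 for Sam-S 1 and 2 against 2.40 and 1.76 for control 1 and 2, dpr11 with 2.44 and 2.63 against 1.94 and 1.86, beat-IV with 2.27 and 2.48 against 1.95 and 1.78, and side with 2.10 and 2.18 against 1.83 and 1.73 in the same libraries. The groups did not overlap at the 4 regions, beside 66.9% of all 251.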

How the data were processed

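MeDIP-seq measured ovarian DNA recovered by a 6mA antibody in 2 Sam-S and 2 control libraries. Of the 8 samples, the 4 inputs enter only through peak calling. Per the file headers, the authors called peaks with MACS 2.1.1.20160309 in each library, using as its control the matching input DNA by genotype and replicate number, with tags extended to 200 bp, 1 tag per position, a q cutoff of 0.05, a genome size of 120 Mb and the smaller library scaled up. The submitters' processing notes name Bowtie2. The build is not given in the sources used here. The deposited lists hold, per peak, the pileup signal at the summit, the fold enrichment and −log10 of p and q. They also hold other values, namely peak length and summit. The fold is a ratio over the local input background or, where that is lower, the genome-wide one. The fold is the authors' own value.

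Peaks sharing at least 1 bp were merged in Python 3.11.15 (pandas 2.3.3, numpy 2.4.6, scipy 1.17.1; plots by matplotlib 3.10.9), and the steps were tested on simulated data. The background was recomputed from pileup and fold, and the genome-wide background from the tag totals. Gene names come from a RefSeq table of Release 6 plus ISO1 MT, none of whose coordinates is given. It holds no exons or strand. No genome sequence was used here, so the planned base composition, repeats and motifs were not analysed, and no sequence is printed. Transposon lists were not used here. The depth was 39591292 to 49800736 tags per immunoprecipitated library.

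Genotypes were compared by no test. The exact permutation test planned for summit offset and peak length is not given, since peak bounds entered the choice of regions. Over 6 assignments of the 4 libraries its smallest p would be 0.333. Nothing says that replicates came from separate flies or cultures, so SDs may be technical. The batch numbers are the replicate numbers of the sample titles, and the samples are paired by them. The titles do not say that replicates of one number were handled together. The deviations of replicates 1 from their genotype means had a correlation of -0.127 over the regions. Named regions were the 10 with the highest mean fold, 5 with the highest and 5 with the lowest mean within-batch ratio of one sign, 3 with the smallest lowest fold and 3 strongest per arm, with genes of 3 or more regions and members of the gene lists. The regions and lists were chosen with earlier results of these data known. One listed gene, N6amt, matched no symbol of the table. Alternatives are cutoffs on q and fold, merging, overlap, equal list lengths, other measures, the block and leaving out replicates.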

Additional observations from a re-analysis of the deposited data

How the results depend on the processing

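Results are descriptions of 2 against 2 libraries, and peak calls at this depth do not show absence of the mark where a list has no peak. The number of shared regions was 118, in place of 251, when each library kept its 683 most significant peaks, with 88 regions where both Sam-S folds exceeded both control folds and 92 higher in both batches (74.6% and 78.0% of the 118); this setting keeps fewer peaks. There the 4 summits lay within 100 bp in 89.0%. Leaving out one replicate in turn gave 252 to 1140 regions, the highest without control 2, since fewer libraries have to hold a peak. The first count then compared the remaining folds, and the second used only the batch left whole. They gave 193 to 719 and 194 to 838 regions. The first was 63.1% without control 2, 76.6% without Sam-S 2, 82.8% without Sam-S 1 and 98.0% without control 1. The second was 73.5, 77.0, 98.4 and 98.4% in the same order. The log2 differences were 0.14 to 0.45, with 77.5 to 81.7% in genes and summits within 100 bp in 83.1 to 90.7%. With −log10 p in place of the fold the log2 difference was 0.91, on another scale than 0.29. With batch as a replicate block the difference was 0.29, and 190 regions were higher in Sam-S in each batch; without the pairing, 244 had the higher Sam-S mean. In the other settings, the log2 difference stayed between 0.14 and 0.33, and 143 to 195 regions had both Sam-S folds above both controls. Among these, pileup over the genome-wide background and control 2 left out at fixed regions were added after seeing the data. The 143 of 251 came from dividing each pileup by the median background of the 4 libraries, beside 168 in the main setting. With that divisor 148 regions were higher in both batches, beside 190, and the log2 difference was 0.21. Over the genome-wide background of each library the counts were 195 and 205. The counts thus changed with the background that divides the pileup.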

Other observations

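Some gene families were looked at after the positions of the regions were seen, and get no test. Of 10 genes on these arms with a Muc or Mur symbol, whose products are mucins or mucin-related, 3 held a region (Muc30E, Muc96D and Mur82C), beside 1.7% of all genes. Sgs1, 1 of 6 genes with an Sgs symbol, named for the salivary gland secretion of the larva, held 2 regions in 4.01 kb, with folds of 2.63 and 2.65 for Sam-S 1 and 2.07 and 2.38 for Sam-S 2, against 1.87 and 1.89 for control 1 and 1.66 and 1.57 for control 2. Both Sam-S libraries were above both controls at either region, as at 66.9% of the 251, with batch 1 ratios of 0.49 and 0.48 on the log2 scale. The local input there was 1.24 and 1.23 times the genome-wide background for Sam-S 1, against 1.68 and 1.52 times for control 1. The heights without it were 3.29 and 3.28 for Sam-S 1, against 3.15 and 2.89 for control 1. The part of the input in these ratios was not tested beyond these values. Of 25 Osi genes, 3 held a region (Osi6, Osi7 and Osi10b), beside 1.7% of all genes. Gene length was not taken into account for the Muc, Mur, Sgs and Osi counts. Osi7 held 2, where the groups overlapped, with 1.62 and 1.73 for Sam-S 1 and 1.52 and 2.08 for Sam-S 2, against 1.81 and 1.80 for control 1 and 1.44 and 1.44 for control 2.

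A few further regions were also picked after their positions were seen and stand for no gene group. Of the 2 regions in sqd, whose product acts on gurken mRNA, 3R:13635324-13636226 had folds of 2.26 for Sam-S 1 and 2.48 for Sam-S 2, against 2.22 for control 1 and 1.63 for control 2. The other, 3R:13641128-13641467, had 2.61 for Sam-S 1 and 2.12 for Sam-S 2, against 2.44 for control 1 and 2.17 for control 2, so the groups overlapped. In Fmr1, a regulator of translation, 3R:10102716-10103159 had 2.63 for Sam-S 1 and 2.74 for Sam-S 2, against 2.17 for control 1 and 1.57 for control 2. In gpp, which encodes a histone methyltransferase, the folds were 2.41 for Sam-S 1 and 2.35 for Sam-S 2, against 2.00 for control 1 and 1.82 for control 2 at 3R:6419886-6420253. In trx the values at 3R:14278883-14279464 were 2.40 for Sam-S 1 and 2.69 for Sam-S 2, against 2.54 for control 1 and 1.63 for control 2, so the groups overlapped.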
